A study of Mus musculus with 8 samples.

Results

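The interferon response and RNA sensing genes examined here are 33 genes of the deposited mouse gene count table, taken by gene symbol out of 54532 genes. They comprise 8 sensors of foreign nucleic acid, 10 factors that carry or tune the signal, 12 antiviral effectors and 3 genes of antigen presentation. Their RNA was measured by bulk sequencing in brain tissue of male mice aged 3 months, in 4 libraries labelled Nsun5-KO and 4 libraries labelled WT. Nsun5 encodes a methyltransferase that places 5-methylcytosine on ribosomal RNA, and the study concerns myelination and sleep after its loss. Per the labels' protocols, all animals came from the same litter, were anaesthetised with pentobarbital at 50 mg/kg and numbered 5 per genotype. The labels give neither the strain nor the allele that inactivates Nsun5.

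RIG-I and MDA5, the products of Ddx58 and Ifih1, recognise double-stranded RNA in the cytosol and signal through the mitochondrial adaptor MAVS to the transcription factors IRF3 and IRF7, which switch on type I interferon genes. Secreted interferon binds the receptor made of IFNAR1 and IFNAR2 and drives a complex that holds STAT2 and IRF9 onto the promoters of interferon-stimulated genes, whose products block viral replication. In healthy brain tissue the pathway is known to run at a low tonic level, with microglia, endothelium and other cells contributing.

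The 8 libraries held 15642086 to 17829523 counts. Nsun5 itself had 6.41, 7.32, 5.16 and 6.24 CPM (the count scaled to library size) in libraries labelled Nsun5-KO, against 5.29, 5.26, 6.23 and 6.18 CPM in WT. The groups overlapped (log2 fold change 0.13, SE 0.15, edgeR adjusted p = 0.817), and part of the Nsun5 gene is shared with Pom121 on the opposite strand, whose reads cannot be told apart in these unstranded libraries. Nsun5 RNA was therefore no lower where the labels say it is lost, and without the allele it is unknown whether counts over the whole gene could show the loss. Directions below follow the labels. Neuronal genes were abundant in every library (Snap25, 33427 to 53730 counts), and the design text names the whole brain. The cerebellar genes Gabra6 and Pcp2, both looked up with earlier results known, had 30 and 19 counts in WT replicate 2, and 0 to 2 and 0 to 4 counts in the other 7 libraries. Both genes were thus near 0 in 7 libraries although the whole brain is named, and whether the cerebellum was included was not tested. On the first principal component (25.7% of the variance) WT replicates 1 and 2 lay at -29.7 and -36.0, apart from the other 6 libraries (1.75 to 23.8).

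Many interferon-stimulated genes carry an interferon-stimulated response element (ISRE) near their start, the DNA letters to which this complex and other IRF factors bind. Of the 33 genes, 24 had a RefSeq promoter window (GRCm38.p6, the mm10 build) of 250 bases before to 50 after the start. The ISRE core, searched on both strands as GAAA, any 2 bases and GAAA, stood in 12 of these 24 genes, and in 44.4% of their windows against 3.44% of all 32851 windows in the table. The 8 genes with a core before the start are shown because they cover all 4 roles described below and let their element be read beside their values. Capitals mark the core letters, which read TTTC, any 2 bases and TTTC where the core lies on the opposite strand, and overlapping cores run together.
Isg15 (chr4:156200860-156200911, minus strand): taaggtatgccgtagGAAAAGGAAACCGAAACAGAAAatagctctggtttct
Ifit1 (chr19:34640770-34640828, plus strand): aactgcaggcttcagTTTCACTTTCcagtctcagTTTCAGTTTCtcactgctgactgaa
Ifit3 (chr19:34583358-34583431, plus strand): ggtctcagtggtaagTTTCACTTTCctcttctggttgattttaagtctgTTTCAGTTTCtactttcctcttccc
Bst2 (chr8:71537572-71537617, minus strand): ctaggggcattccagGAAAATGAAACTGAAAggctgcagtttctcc
Oas1a (chr5:120907526-120907560, minus strand): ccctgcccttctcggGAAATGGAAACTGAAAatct
Rsad2 (chr12:26456548-26456587, minus strand): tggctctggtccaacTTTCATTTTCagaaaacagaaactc
Stat2 (chr10:128270261-128270300, plus strand): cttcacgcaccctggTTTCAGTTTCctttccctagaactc
B2m (chr2:122147533-122147572, plus strand): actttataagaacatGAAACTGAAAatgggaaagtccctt
Isg15 held 3 overlapping cores, and Ifit1, Ifit3, Bst2 and Oas1a held 2 each. The nearest core started 14 bases before the start, in Oas1a, and the farthest 222 bases before it, in Stat2. In Ddx58, Ifih1, Ifitm3 and Eif2ak2 the core lay only after the start.

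Irf1 had no ISRE core in its windows and carried the other element of the pathway, the STAT-binding GAS letters TTCNNNGAA, which are capitalised here.
Irf1 (chr11:53769909-53769947, plus strand): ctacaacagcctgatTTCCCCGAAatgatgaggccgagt
The GAS letters stood in 8 of the 24 genes, and in 29.6% of their windows against 8.30% of all windows. In Bst2 a GAS match overlaps the ISRE core printed above.

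The module as a whole was expressed at a low level in both groups. Per gene length, in fragments per kilobase and library size (FPKM), the mean over the 8 libraries was below 1 FPKM for 16 of the 33 genes and at least 10 FPKM for 3. B2m, the light chain of MHC class I molecules, stood far above the others with 97.6 ± 6.56 FPKM in libraries labelled Nsun5-KO and 102 ± 14.7 FPKM in WT (SD, n = 4 each), and made up 60.0% of the summed FPKM of the 33 genes. Ifi27, an interferon-induced protein of the mitochondrion, followed with 14.9 ± 1.86 FPKM in libraries labelled Nsun5-KO and 16.9 ± 3.14 FPKM in WT. Ifitm3, which blocks virus entry at endosomal membranes, had 12.3 ± 2.63 FPKM in libraries labelled Nsun5-KO and 14.97 ± 3.02 FPKM in WT. Ifi27 and Ifitm3 overlapped between libraries, so their order is not beyond the spread, whereas both lay above every library of the next gene, Bst2 (at most 5.39 FPKM in libraries labelled Nsun5-KO and 7.01 FPKM in WT). At the low end Mx1, Zbp1 and Oas2 averaged 0.0390, 0.0527 and 0.0971 FPKM over all libraries.

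**Figure D1:**
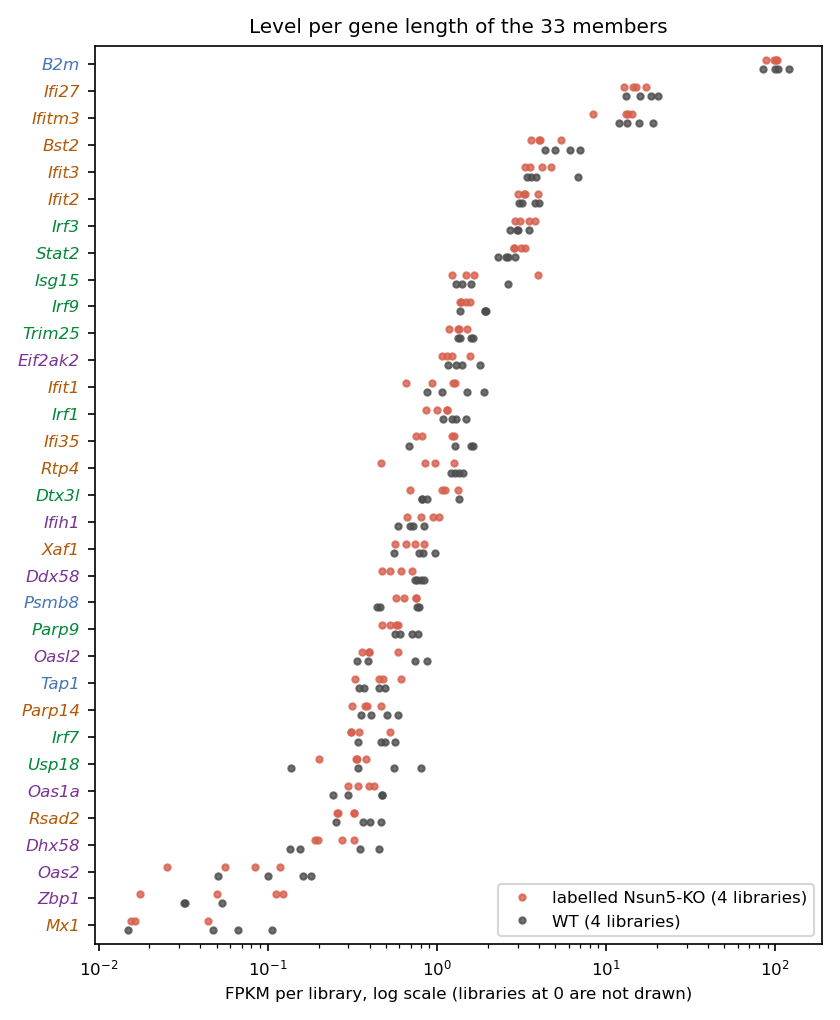
FPKM of the 33 genes in each library on a log axis, 1 point per library, libraries labelled Nsun5-KO in red above WT in grey, with gene names coloured by role (purple sensors, green signal factors, orange effectors, blue antigen presentation). B2m stands alone near 100 FPKM, most genes lie between 0.2 and 5 FPKM with overlapping groups, and Mx1, Zbp1 and Oas2 lie lowest.

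No difference between the genotypes was called in these genes. Of the 33 genes, 30 passed the low-count filter, and edgeR's quasi-likelihood test with Benjamini-Hochberg adjustment over 16062 genes called 0 of them at an adjusted p below 0.05, as it did for 0.0% of all genes. At an unadjusted p below 0.05, 1 gene of the 30 lay lower and 0 lay higher, where all genes gave 5.05% and 5.3%. DESeq2 called 0 of the 33 genes, against 0.583% of the 16121 genes with an adjusted p. At an unadjusted p below 0.05 it had 1 of the 33 lower (Ddx58). That was so for 3.18% of the 28986 genes with a DESeq2 p, a set that includes genes of low count. The log2 fold change was below 0 in 23 of the 30 genes, where 51.4% of all genes were, and its median was -0.19 beside -0.01 over all genes. Without WT replicate 1 the count below 0 was 20. The count of genes at an unadjusted p below 0.05 was 5 without WT replicate 2, 3 without replicate 3 labelled Nsun5-KO, and 2 without replicate 1 labelled Nsun5-KO or without WT replicate 4. It was 0 when replicate 4 labelled Nsun5-KO was left out. No share of all genes was taken in these refits, so the counts are not read as a result about these genes. In brain tissue fewer cells of a type and less RNA per cell cannot be told apart, here and below.

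The sum of the 33 genes was 259, 257, 233 and 222 CPM in replicates 1 to 4 labelled Nsun5-KO, against 295, 238, 279 and 233 CPM in WT. WT replicates 1 and 3 were the high libraries, and WT replicates 2 and 4 lay among libraries labelled Nsun5-KO. The score of the 30 tested genes, their mean log2 CPM minus the WT mean, was -0.05, -0.02, -0.27 and -0.26 in libraries labelled Nsun5-KO and 0.15, -0.18, 0.19 and -0.16 in WT. WT replicate 1 was the highest library for 13 of the 30 genes and WT replicate 3 for 9, where they were highest for 15.7% and 12.5% of all genes. Replicates 3 and 4 labelled Nsun5-KO were the lowest library for 7 genes each, where they were lowest for 14.99% and 9.13% of all genes. WT replicates 2 and 1 were lowest for 6 and 5 of the 30 genes, where they were lowest for 15.5% and 15.4% of all genes.

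**Figure D2:**
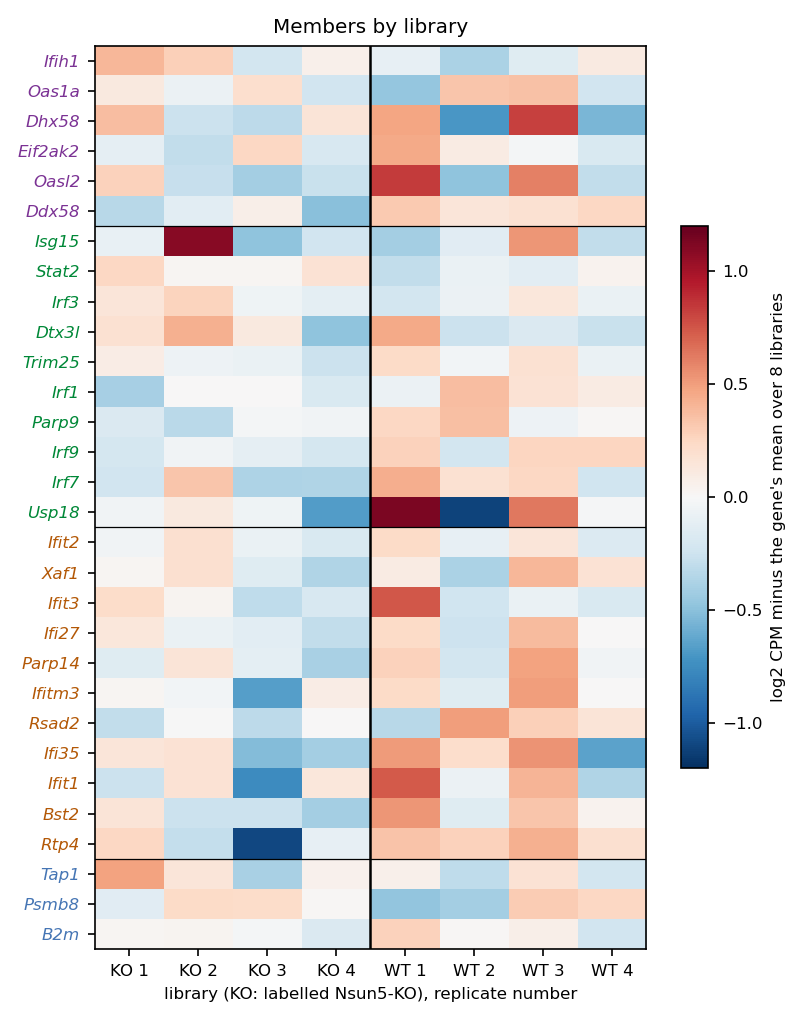
Log2 CPM of the 30 tested genes minus each gene's mean over the 8 libraries, genes in rows grouped by role and libraries in columns, with libraries labelled Nsun5-KO left of WT. WT replicates 1 and 3 are red for most genes, WT replicate 2 and replicates 3 and 4 labelled Nsun5-KO are mostly blue, and no value passes the colour limit of 1.2.

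Markers of cells that carry this pathway were set beside these values. The microglial markers, 18 genes all of which passed the filter, summed to 571 to 615 CPM in libraries labelled Nsun5-KO and 598 to 646 CPM in WT. The median of their fold changes was -0.05, with 12 below 0. At an unadjusted edgeR p below 0.05, 3 lay lower and 0 higher, where 5.05% and 5.3% of all genes did. In 2 of the 18 all libraries labelled Nsun5-KO lay below all WT libraries, as in 2.71% of all genes. Of the 18 markers, Cx3cr1 had 45.4 ± 3.73 CPM in libraries labelled Nsun5-KO and 50.1 ± 0.980 CPM in WT. P2ry12 had 32.5 ± 2.54 CPM in libraries labelled Nsun5-KO and 37.9 ± 3.89 CPM in WT (log2 fold change -0.22, edgeR unadjusted p = 0.0350, adjusted p = 0.449). The 11 endothelial markers summed to 428 to 492 CPM in libraries labelled Nsun5-KO and 431 to 478 CPM in WT, and their median fold change was 0.00. The 10 astrocyte markers summed to 4385, 4319, 4879 and 4515 CPM in replicates 1 to 4 labelled Nsun5-KO. In WT they summed to 4645, 4000, 4674 and 4190 CPM, with replicates 1 and 3 the high WT libraries, as for the interferon genes. Their median fold change was -0.04, with 6 below 0. The 7 mural cell markers, of which 6 passed the filter, summed to 202 to 245 CPM in libraries labelled Nsun5-KO and 204 to 238 CPM in WT (median 0.05). The 5 macrophage markers of the vessel border, Mrc1 among them, summed to 12.05 to 15.9 CPM in libraries labelled Nsun5-KO and 12.99 to 19.5 CPM in WT. Of their fold changes 4 were below 0, with a median of -0.18. The 14 blood leukocyte markers, of which 1 passed the filter, summed to 6.03 to 21.3 CPM in libraries labelled Nsun5-KO and 2.91 to 24.6 CPM in WT, where replicate 1 was lowest and replicate 2 highest. Among them the T cell gene Cd3e had 0 to 7 counts and the neutrophil gene S100a8 had 1 to 8 counts per library.

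Markers of fibroblasts of the meninges, 6 genes, had all 6 fold changes below 0 (median -0.35) and summed to 37.9 to 69.3 CPM in libraries labelled Nsun5-KO and 41.1 to 108 CPM in WT, the highest being WT replicate 1. The choroid plexus gene Ttr ranged from 35.1 to 1096 CPM in libraries labelled Nsun5-KO and from 274 to 1055 CPM in WT, and all 7 choroid plexus markers had a fold change below 0 (median -0.86). The red cell gene Hbb-bs had 38.9 to 119 CPM in libraries labelled Nsun5-KO and 33.6 to 79.1 CPM in WT. The 5 red cell markers summed to 68.0 to 222 CPM in libraries labelled Nsun5-KO and 64.8 to 156 CPM in WT, with 3 fold changes below 0 (median -0.01, lowest -1.06). Without overlap 1 of the 5 lay lower, as did 2.71% of all genes. EdgeR called 0 of them, as it did 0.0% of all genes, and DESeq2 called 1, where it called 0.583% of all genes. The 3 lists that follow did not overlap between the groups in their sums, and how often other lists do so was not tested. The 9 oligodendrocyte markers summed to 4551 to 6264 CPM in libraries labelled Nsun5-KO and 6995 to 7601 CPM in WT (all 9 fold changes below 0, median -0.41). The 5 ependymal markers summed to 9.63 to 19.1 CPM in libraries labelled Nsun5-KO and 21.0 to 34.0 CPM in WT (all 5 below 0, median -1.29). The 8 neuronal markers summed to 7830 to 8372 CPM in libraries labelled Nsun5-KO and 6947 to 7171 CPM in WT. Of their fold changes 6 were above 0 and 2 below (median 0.11, lowest -0.43). Without overlap 6 of the 9 oligodendrocyte and 3 of the 5 ependymal markers lay lower, as did 2.71% of all genes. Of the 8 neuronal markers 3 lay higher without overlap, as did 2.99% of all genes. EdgeR called none of these markers, and DESeq2 called 2, 2 and 1 of them, where it called 0.583% of all genes. The part of these cell types in the values of the interferon genes was not tested.

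Among the sensors, Ddx58 (ENSMUSG00000040296, chromosome 4, 40203773 to 40239828, mm10), which encodes RIG-I, was the gene with the smallest p. It had 3.77, 4.37, 5.04 and 3.35 CPM in libraries labelled Nsun5-KO, against 5.99, 5.32, 5.44 and 5.73 CPM in WT. All 4 libraries labelled Nsun5-KO lay below all 4 WT libraries, a separation that 2.71% of all genes showed in this direction. The log2 fold change was -0.44 (SE 0.17, 95% interval -0.81 to -0.08), with an unadjusted p = 0.0212 and an edgeR adjusted p = 0.412, so Ddx58 was not called. With any single library left out the fold change lay between -0.55 and -0.36, and its unadjusted p was no longer below 0.05 without replicate 1 or replicate 4 labelled Nsun5-KO.

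Ifih1 (ENSMUSG00000026896, chromosome 2, 62595798 to 62646255), which encodes MDA5, the sensor of long double-stranded RNA, had its difference on the other side. It had 8.43, 7.79, 5.47 and 6.64 CPM in libraries labelled Nsun5-KO, against 5.93, 4.87, 5.75 and 6.86 CPM in WT. Replicates 1 and 2 labelled Nsun5-KO were the high ones and the groups overlapped (log2 fold change 0.27, SE 0.17, edgeR adjusted p = 0.621). Dhx58 encodes LGP2, the regulator of both sensors, and had 0.622 to 1.07 CPM in libraries labelled Nsun5-KO and 0.449 to 1.51 CPM in WT. Its fold change of -0.16 turned to 0.19 without WT replicate 3, and at 7 to 25 counts per library it could not show a small difference.

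Eif2ak2 encodes PKR, the kinase that halts translation when it binds double-stranded RNA. It had 6.29, 5.49, 8.08 and 5.90 CPM in libraries labelled Nsun5-KO, against 9.30, 7.25, 6.65 and 5.96 CPM in WT, where replicate 1 was highest (log2 fold change -0.18, edgeR adjusted p = 0.775). Without WT replicates 1 and 2 its fold change was 0.03. Oasl2, of the oligoadenylate synthetase family that senses double-stranded RNA, had 3.77, 2.54, 2.30 and 2.55 CPM in libraries labelled Nsun5-KO and 5.64, 2.18, 4.78 and 2.50 CPM in WT. Its WT libraries were split, with replicates 1 and 3 above every other library and replicate 2 below every other library (log2 fold change -0.44, SE 0.31, edgeR adjusted p = 0.668).

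Oas1a makes the oligoadenylate signal that activates RNase L and had a fold change of -0.03, with 10 to 13 counts in libraries labelled Nsun5-KO and 8 to 15 in WT. It has close paralogs in the Oas1 cluster, so its counts are uncertain. Oas2 and Zbp1 did not pass the filter. Oas2 had 6, 9, 4 and 2 counts in libraries labelled Nsun5-KO and 14, 7, 12 and 4 in WT. Zbp1, a sensor of Z-form nucleic acid that can start cell death, had 7, 3, 1 and 7 counts in libraries labelled Nsun5-KO and 2, 3, 0 and 2 in WT.

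**Figure D3:**
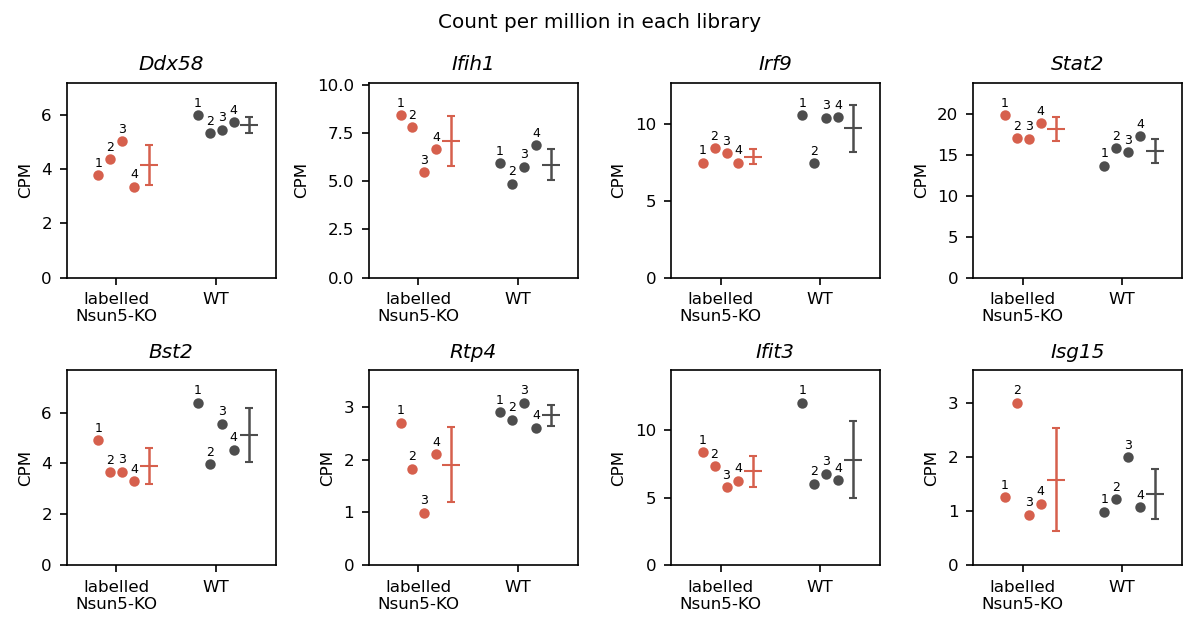
CPM of 8 genes in each library (points, numbered by replicate) with the group mean and SD beside them, libraries labelled Nsun5-KO in red on the left of each panel and WT in grey on the right. Ddx58 is the gene whose groups are apart (3.35 to 5.04 CPM in libraries labelled Nsun5-KO against 5.32 to 5.99 CPM in WT), while single libraries carry the highest values of Ifit3 (WT replicate 1) and Isg15 (replicate 2 labelled Nsun5-KO) and the lowest WT value of Irf9 (WT replicate 2).

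Among the signal factors, Stat2 and Irf9, whose products act in 1 transcription complex, did not share a direction. Stat2 (ENSMUSG00000040033, chromosome 10, 128270559 to 128292849) had 19.9, 17.01, 16.97 and 18.8 CPM in libraries labelled Nsun5-KO, against 13.7, 15.8, 15.3 and 17.2 CPM in WT. Only WT replicate 4 reached into the range of libraries labelled Nsun5-KO. The log2 fold change was 0.23 (SE 0.10, unadjusted p = 0.0504, edgeR adjusted p = 0.483). Irf9 (ENSMUSG00000002325, chromosome 14, 55603571 to 55610030) had 7.48, 8.44, 8.08 and 7.49 CPM in libraries labelled Nsun5-KO and 10.6, 7.44, 10.4 and 10.4 CPM in WT. Here WT replicate 2 alone lay with libraries labelled Nsun5-KO, and the log2 fold change was -0.30 (SE 0.14, unadjusted p = 0.0513, edgeR adjusted p = 0.485). Irf9 shares 123 bases with Rnf31 on the same strand (246 to 359 counts), so reads there are uncertain.

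The IRF factors upstream of interferon also lay on both sides of 0. Irf3, which is activated by phosphorylation and is made without a stimulus, had 11.5 ± 1.44 CPM in libraries labelled Nsun5-KO and 10.6 ± 1.11 CPM in WT (log2 fold change 0.12). Irf7, which interferon itself induces, had 1.32, 2.01, 1.18 and 1.19 CPM in libraries labelled Nsun5-KO and 2.15, 1.80, 1.87 and 1.30 CPM in WT (log2 fold change -0.32, edgeR adjusted p = 0.745). Replicate 2 labelled Nsun5-KO stood apart from the other libraries of its group. Irf1, the factor that the GAS-bearing promoter above belongs to, had 3.46, 4.61, 4.60 and 4.03 CPM in libraries labelled Nsun5-KO and 4.36, 5.96, 5.20 and 4.93 CPM in WT. Its groups overlapped through WT replicate 1 (log2 fold change -0.29, SE 0.17, edgeR adjusted p = 0.593).

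Isg15 encodes a ubiquitin-like modifier that is joined to proteins after interferon. It had 1.26, 3.01, 0.933 and 1.13 CPM in libraries labelled Nsun5-KO, against 0.988, 1.22, 2.00 and 1.08 CPM in WT. Its fold change of 0.27 (SE 0.40) rested on replicate 2 labelled Nsun5-KO and was -0.25 without it. Usp18, the protease that removes Isg15 and damps the receptor, varied most of the 30 tested genes, with a coefficient of variation of 54.5% over the 8 libraries. It had 0.943, 1.06, 0.933 and 0.567 CPM in libraries labelled Nsun5-KO, and 2.27, 0.385, 1.57 and 0.964 CPM in WT, where replicate 1 was the highest and replicate 2 the lowest of all libraries. The WT range thus enclosed the values of all libraries labelled Nsun5-KO. The log2 fold change was -0.57 (SE 0.46, edgeR adjusted p = 0.707). Leaving out WT replicate 1 gave -0.16, and leaving out WT replicate 2 gave -0.87, where its unadjusted p was below 0.05.

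Trim25, a ubiquitin ligase that acts on RIG-I, had 7.75 ± 0.764 CPM in libraries labelled Nsun5-KO and 8.61 ± 0.914 CPM in WT (log2 fold change -0.15). Parp9 and Dtx3l encode partner proteins that modify histones and act in interferon signalling, and their genes share 682 bases on opposite strands, whose reads cannot be assigned to either. Parp9 had 2.64 ± 0.261 CPM in libraries labelled Nsun5-KO and 3.25 ± 0.466 CPM in WT (log2 fold change -0.30). Dtx3l had 6.48, 7.68, 6.16 and 4.03 CPM in libraries labelled Nsun5-KO and 7.85, 4.75, 5.02 and 4.71 CPM in WT, with WT replicate 1 above its group. Its fold change was 0.12, and 0.33 without WT replicate 1. Over the 10 signal factors 6 fold changes were below 0, with a median of -0.22 and 0 called by edgeR or DESeq2.

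The antiviral effectors lay on the lower side together. All 11 that passed the filter had a fold change below 0, with a median of -0.29, where 51.4% of all genes lay below 0, yet none passed an unadjusted p of 0.05 or was called by edgeR or DESeq2. Without WT replicate 1 the count was 9 of 11. Of 37 tested interferon-induced genes outside the 33, 28 had a fold change below 0, with a median of -0.10. At an unadjusted edgeR p below 0.05, 1 of these 37 lay lower and 3 higher, where 5.05% and 5.3% of all genes did. The 12 effectors summed to 76.8, 74.7, 61.2 and 64.1 CPM in libraries labelled Nsun5-KO, against 93.1, 66.6, 92.5 and 70.8 CPM in WT. WT replicates 1 and 3 were higher than all the others, while WT replicates 2 and 4 lay inside the range of libraries labelled Nsun5-KO, so the groups overlapped.

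Rtp4 (ENSMUSG00000033355, chromosome 16, 23520291 to 23614222), an interferon-induced chaperone of receptors, had the lowest fold change of the effectors. It had 2.70, 1.83, 0.995 and 2.10 CPM in libraries labelled Nsun5-KO and 2.91, 2.76, 3.08 and 2.61 CPM in WT. The WT libraries were close to each other and replicate 1 labelled Nsun5-KO lay among them (log2 fold change -0.57, SE 0.28, edgeR adjusted p = 0.505). It was -0.78 without replicate 1 labelled Nsun5-KO, where its unadjusted p was below 0.05, and -0.36 without replicate 3 labelled Nsun5-KO. Rtp4 shares 525 bases with Masp1 on the opposite strand, which had 178 to 303 counts per library against 16 to 51 for Rtp4, and lies on the same strand as Gm45338 over 39791 bases (1 to 26 counts).

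Bst2 encodes tetherin, which holds budding virus at the cell surface. It had 4.90, 3.66, 3.67 and 3.29 CPM in libraries labelled Nsun5-KO and 6.40, 3.98, 5.56 and 4.54 CPM in WT. The groups overlapped through replicate 1 labelled Nsun5-KO (log2 fold change -0.40, SE 0.20, unadjusted p = 0.0694, edgeR adjusted p = 0.528). Ifitm3 had 9.24, 8.92, 5.72 and 9.70 CPM in libraries labelled Nsun5-KO and 10.7, 8.21, 12.9 and 9.13 CPM in WT (log2 fold change -0.29, edgeR adjusted p = 0.636). Replicate 3 labelled Nsun5-KO was the low library, as it was for Rtp4.

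The Ifit genes, whose products bind viral RNA, form a cluster on chromosome 19. Ifit1, which recognises RNA caps that lack methylation, had 2.52, 3.42, 1.74 and 3.35 CPM in libraries labelled Nsun5-KO and 5.12, 2.89, 4.05 and 2.33 CPM in WT (log2 fold change -0.38, SE 0.29, edgeR adjusted p = 0.688). Ifit2 had 13.4 ± 1.54 CPM in libraries labelled Nsun5-KO and 13.9 ± 1.83 CPM in WT (log2 fold change -0.06). Ifit3 had 8.36, 7.32, 5.78 and 6.24 CPM in libraries labelled Nsun5-KO and 12.04, 6.03, 6.77 and 6.30 CPM in WT. For Ifit3 the direction rested on WT replicate 1, since the fold change of -0.17 was 0.12 without it. Ifit3 has the close copy Ifit3b beside it, so its counts are uncertain.

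The other effectors gave values of the same order. Rsad2, the antiviral enzyme viperin, had 1.13, 1.42, 1.12 and 1.42 CPM in libraries labelled Nsun5-KO and 1.10, 2.05, 1.75 and 1.59 CPM in WT (log2 fold change -0.35, SE 0.28, edgeR adjusted p = 0.709). Ifi35, a partner of the protein NMI, was at -0.36, Parp14, a large ADP-ribosyltransferase, at -0.27, Ifi27 at -0.19 and Xaf1, which promotes cell death, at -0.17. The groups overlapped in all 4 of these genes. Mx1, an antiviral GTPase that is disrupted in many laboratory strains, had 1, 1, 0 and 3 counts in libraries labelled Nsun5-KO and 7, 4, 3 and 1 in WT and did not pass the filter.

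The antigen presentation genes stood on both sides of 0. B2m had 87.8, 88.5, 85.1 and 76.4 CPM in libraries labelled Nsun5-KO and 105, 86.9, 90.7 and 73.5 CPM in WT (log2 fold change -0.07, 95% interval -0.29 to 0.14, with an edgeR adjusted p = 0.842). It varied least of the 30 genes, with a coefficient of variation of 10.9%. Tap1, a subunit of the transporter that loads peptides onto MHC class I, was at 0.17 and Psmb8, a catalytic subunit of the immunoproteasome, at 0.13. Psmb8 turned to -0.20 without WT replicates 1 and 2. Tap1 shares 212 bases with Psmb9 on the opposite strand.

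**Figure D4:**
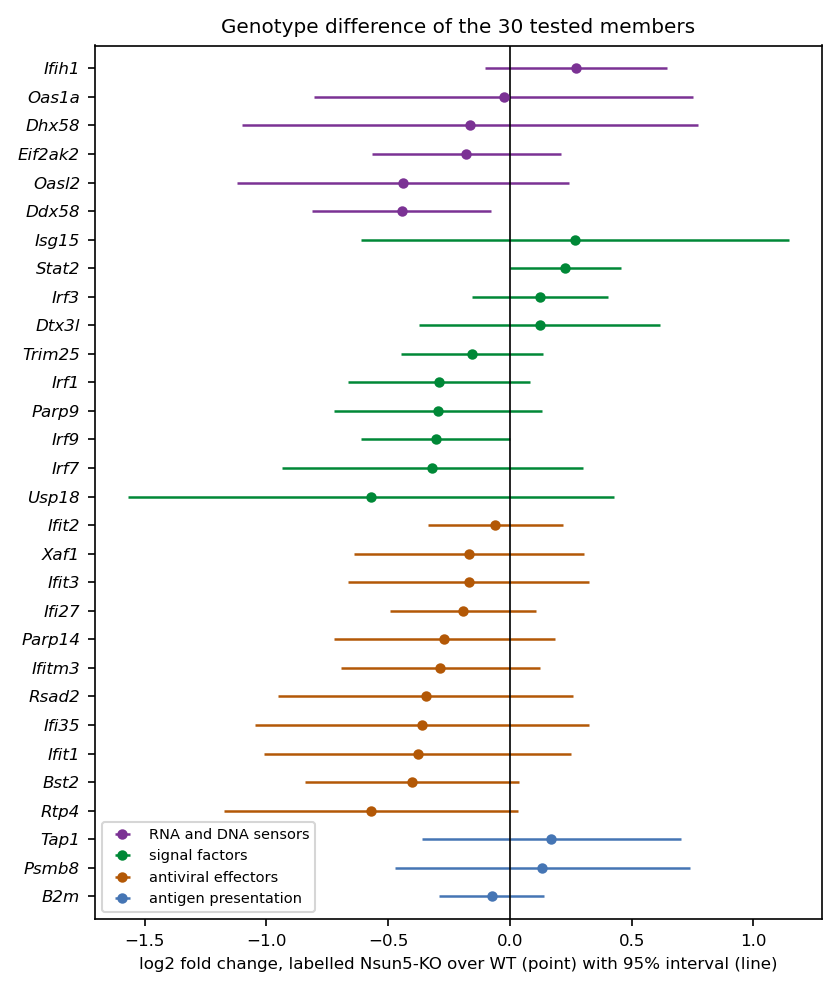
Log2 fold change of libraries labelled Nsun5-KO over WT for the 30 tested genes (points) with 95% intervals from edgeR (lines), grouped and coloured by role. The interval of Ddx58 (-0.81 to -0.08) is the single one that leaves out 0, and all 11 effectors have their point below 0.

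These intervals set what size of difference the data leave room for. Of the 30 intervals, 29 contained 0 and 29 ended below 1 on the log2 scale. For the 11 effectors the highest upper end was 0.32, in Ifit3, which is a 1.252-fold higher level in libraries labelled Nsun5-KO. The exception among all 30 was Isg15, whose interval reached 1.15, a 2.21-fold higher level. On the lower side the intervals reached -1.57 in Usp18 and -1.18 in Rtp4, so a lower level in libraries labelled Nsun5-KO was not bounded as closely.

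The 12 genes with a core in their window had 9 fold changes below 0 and a median of -0.17, and the 12 genes whose windows held none had 8 below 0 and a median of -0.16. Of the 9 genes with no window in the table, 6 were tested, and all 6 were below 0 with a median of -0.28. The Isg15 promoter with its 3 cores belonged to a gene at 0.27, and that of Ifit1 with 2 cores to a gene at -0.38. No match says only that the letters are not in that window.

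The rest of the pathway was examined in 105 further genes, of which 90 passed the filter. EdgeR called 0 of them and DESeq2 called 0. At an unadjusted p below 0.05, 4 lay lower and 6 higher, where 5.05% and 5.3% of all genes did. Their median log2 fold change was -0.09, with 59 of 90 below 0. Type I, type II and type III interferon were represented by Ifnb1, Ifna4, Ifng and Ifnl3, the last 3 looked at after their values were seen, which had 0 counts in all 8 libraries. A count of 0 allows a level of up to 0.170 to 0.192 CPM per library (3 counts, counting error only). Trex1, looked at after its values were seen, was also at 0, and it lies wholly inside Atrip on the same strand. Whether reads over Trex1 were assigned to it was not tested.

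The receptor and adaptor genes were present in all libraries. Ifnar1 had 44.9 ± 1.32 CPM in libraries labelled Nsun5-KO and 44.6 ± 5.20 CPM in WT (log2 fold change 0.01, 95% interval -0.18 to 0.20). Ifnar2 had 12.3 ± 1.06 CPM in libraries labelled Nsun5-KO and 13.95 ± 0.866 CPM in WT (log2 fold change -0.19, edgeR adjusted p = 0.582). Mavs had 7.67 ± 1.42 CPM in libraries labelled Nsun5-KO and 8.37 ± 1.29 CPM in WT (log2 fold change -0.13, edgeR adjusted p = 0.843).

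Of the further genes with a mean of at least 1 CPM, the 4 with the smallest p in each direction are given here, and edgeR called none of them. Herc6, the ligase that attaches Isg15 in the mouse, had 7.11, 10.5, 9.51 and 8.79 CPM in libraries labelled Nsun5-KO and 5.18, 6.03, 7.92 and 6.69 CPM in WT (log2 fold change 0.47, SE 0.17, edgeR adjusted p = 0.406). Slfn5 had 8.93, 7.56, 7.52 and 9.93 CPM in libraries labelled Nsun5-KO and 6.69, 5.71, 6.96 and 6.81 CPM in WT, and its groups did not overlap (log2 fold change 0.38, edgeR adjusted p = 0.412). Znfx1, a helicase that senses RNA at mitochondria, did not overlap either, with 86.8 ± 2.83 CPM in libraries labelled Nsun5-KO and 70.9 ± 12.2 CPM in WT (log2 fold change 0.29). Its lowest library was WT replicate 1 at 54.0 CPM, and with any single library left out its fold change lay between 0.18 and 0.37. Separation with higher values in libraries labelled Nsun5-KO was seen in 2.99% of all genes. Irf2, which competes with Irf1 at its sites, was at 0.33.

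On the lower side stood Zc3hav1, the zinc finger protein ZAP that directs viral RNA to decay, with 4.21, 4.61, 4.79 and 5.22 CPM in libraries labelled Nsun5-KO and 7.91, 5.96, 8.04 and 4.31 CPM in WT (log2 fold change -0.48, SE 0.20, edgeR adjusted p = 0.449). WT replicates 1 and 3 were again the high ones, and WT replicate 4 lay inside the range of libraries labelled Nsun5-KO. Lgals3bp was at -0.37, Erap1, which trims peptides for MHC class I, at -0.27 and Psme1, an activator of the proteasome, at -0.28. The MHC class I gene H2-K1 had 22.7 ± 5.17 CPM in libraries labelled Nsun5-KO and 27.8 ± 4.85 CPM in WT (log2 fold change -0.29, edgeR adjusted p = 0.598). Class I genes have close copies, which makes their counts uncertain.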

How the data were processed

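Per the submitters' processing notes, reads were aligned with HISAT2 2.0.5 to mm10. How reads were assigned to genes was not given in the sources used here. TRIzol extraction and the NEBNext Ultra kit, which does not mark strand, are named in the labels' protocols. The deposited counts are whole reads per gene and were not normalized. The deposited FPKM values are the same counts per gene length, scaled in each library by a constant of 0.981 to 1.02 of its total.

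The 33 genes and all lists were chosen with earlier results of these data known. The main test was edgeR 4.0.16 under R 4.3.3 (filterByExpr by group, TMM, robust quasi-likelihood F test, 16062 genes, Benjamini-Hochberg over all of them, 4 against 4 libraries, no covariates). The pipeline was also run on simulated counts, whose outcome is not reported here and is not used as support for any result. CPM is scaled to TMM library sizes, and fold changes are log2 of labelled Nsun5-KO over WT. All 33 genes are accounted for; of the other pathway genes, the text names the 4 with the smallest p per direction with a mean of at least 1 CPM and a fixed set (Mavs, Ifnar1, Ifnar2, Ifnb1, H2-K1; 1 further gene is not reported here), and Ifna4, Ifng, Ifnl3 and Trex1, added after their values were seen because they were at 0, besides Nsun5 and marker genes. No 2 libraries of a group agreed within sampling noise (chi-square per degree of freedom 7.22 to 20.4). Alternatives were DESeq2 1.42.0, limma 3.58.1 (voom with sample weights, and log2(FPKM + 1) or log2(FPKM + 0.1)), other scalings and filters, protein-coding genes alone, the replicate number as a block, and libraries left out. A deposited table of mean FPKM per group was not used.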

Additional observations from a re-analysis of the deposited data

Results flagged for a closer look

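Of 110 sets of 4 values checked (each gene in each group), 8 had a library whose gap to the nearest other exceeded 0.829 of the group's range, where chance gives about 1 in 20. Among libraries labelled Nsun5-KO, replicate 2 was high for Isg15 (3.01 CPM, against 0.933 to 1.26 CPM in the others) and for Irf7 (2.01 CPM, against 1.18 to 1.32 CPM). Replicate 4 labelled Nsun5-KO was high for Znfx1 (91.1 CPM, against 85.1 to 85.9 CPM), and replicate 1 for the red cell gene Hbb-bs (119 CPM, against 38.9 to 49.7 CPM). In WT, replicate 1 was high for Ifit3 (12.04 CPM, against 6.03 to 6.77 CPM) and Dtx3l (7.85 CPM, against 4.71 to 5.02 CPM). WT replicate 2 was low for Irf9 (7.44 CPM, against 10.4 to 10.6 CPM), and WT replicate 3 was high for S100a8 (0.484 CPM, against 0.116 to 0.170 CPM), a gene with at most 8 counts.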

How the results depend on the processing

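EdgeR called 0 genes in all, and 94 were called with DESeq2, 68 without the low-count filter and 0 to 2 with 1 library left out (2 without replicate 4 labelled Nsun5-KO); 0 of the 33 genes and 0 of the 105 further genes were called under any of the 21 alternatives. The number of the 33 genes at an unadjusted p below 0.05, which was 1, became 3 with limma voom, log2(FPKM + 1) or log2(FPKM + 0.1), 2 with RLE factors, upper quartile scaling, library totals, no filter, the stricter filter or protein-coding genes alone, and 2 without replicates 1 and 3 labelled Nsun5-KO. With 1 library left out it ranged from 0 (without replicate 4 labelled Nsun5-KO) to 5 (without WT replicate 2). No share of all genes at this p stands beside these settings, so the counts are not read as a result about the 33 genes. The direction of single genes turned in 17 of 627 cases: with voom Dhx58 was at 0.10 and Oas1a at 0.0083, and Oas1a was at 0.0082 on log2(FPKM + 0.1). Without WT replicates 1 and 2, Eif2ak2 was at 0.028, Ifit3 at 0.081, B2m at 0.038 and Psmb8 at -0.20. With 1 library left out, Oas1a ranged from -0.19 to 0.12, Isg15 from -0.25 to 0.54, Dtx3l from -0.014 to 0.33, Ifit2 from -0.14 to 0.0089, Ifit3 from -0.28 to 0.12, B2m from -0.16 to 0.010 and Dhx58 from -0.38 to 0.19. The cause was not tested. The medians of the 33 genes, of the 4 roles and of the further genes moved by less than the spread between libraries under every alternative, that of the 33 from -0.27 to -0.09. With the replicate number as a block, edgeR called 0 genes and the median of the 33 was -0.18; same-numbered libraries did not deviate together (correlations -0.21 to 0.063, and none correlated best with its own number), so the numbers were not taken as pairs. The median of the 33 genes was 58.75 counts per library, which limits what could be shown for single genes.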
